A study of Sus scrofa with 85 samples.

Results

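The infarcted region of the swine left ventricle was compared between 1–3 h and 0–1 h after the start of a coronary artery occlusion, to ask which changes come after the first hour. In each of 3 swine, a balloon closed the left anterior descending coronary artery for 1 h and was then deflated. The 0–1 h samples were therefore taken during ischemia, and the 1–3 h samples after blood flow had returned. Amiodarone was given just before the intervention and again after 1 h, and biopsies were taken repeatedly from the start of the occlusion on. Time, the return of blood flow, the second dose, longer anesthesia and earlier biopsies cannot be told apart in this comparison. All samples were micro-endomyocardial biopsies (micro-EMB), needle-thin pieces of heart wall taken by catheter, and each biopsy gave 1 RNA-seq library. Libraries of the apical location, which the study regards as infarcted, were kept when their total count was at least 1000000 and when their 10 most counted genes held between 7% and 60% of the counts. This left 9 of 11 libraries of 1–3 h and 5 of 6 of 0–1 h, 14 of the 85 libraries of the series. Swine 1640 gave 2 libraries of 0–1 h and 3 of 1–3 h, swine 1644 gave 1 and 3, and swine 5385 gave 2 and 3. Baseline samples were taken before the occlusion in the same animals, are labelled apical, and were not aimed at either region according to the study. For baseline, 4 of 6 libraries were kept. The lateral location of the same hearts served as the non-infarcted region, with 3 libraries at each of the 2 times. All animals were female farm pigs of mixed breed under anesthesia. Biopsies were guided by fluoroscopy, so an apical label does not fix how much ischemic tissue a biopsy holds. Several biopsies came from each animal, and the p-values below treat biopsies as replicates unless the swine is named as a block.

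Ischemic heart muscle is known to respond in waves. Immediate early genes, which encode transcription factors such as FOS, EGR1 and MYC, need no new protein for their transcription and are induced within minutes. Genes that depend on those factors, or on protein damage and oxygen radicals during reperfusion, follow. Heat shock factor 1 drives chaperone genes when proteins unfold, XBP1 and ATF6 drive chaperones of the endoplasmic reticulum, and MYC is a known activator of the genes that build ribosomes.

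Total counts of the 14 libraries lay between 3499443 and 10665711. Micro-EMB are small, and single biopsies differed widely. In 2 of the 14 libraries, 0–1 h replicate 3 (swine 5385) and 1–3 h replicate 6 (swine 1644), cardiomyocyte genes were low and collagen genes high. They stood apart on component 2 of a principal component analysis, which held 21.6% of the variance, and are called fibrous libraries here. The mean log2 CPM (CPM, counts scaled to the TMM-adjusted library size) of 9 cardiomyocyte markers was 4.09 and 2.09 in these libraries, and between 9.21 and 11.47 in the other 12. The markers that define heart muscle were thus abundant in 12 of the 14 libraries and low in 2. Baseline replicate 1 (swine 1644), 2 days replicate 6 (swine 5385) and 14 days replicate 5 (swine 1644) of the infarcted region also stood apart on component 2. Fits without the fibrous libraries left these out as well, as the fit covers all timepoints. A further library, 0–1 h replicate 4 of swine 1640, had first-hour genes at the level of 1–3 h. It had the highest value of the 5 libraries of 0–1 h in 20 of 23 immediate early genes (87.0%), against 19.3% of all genes. It is labelled 0–1 h and was kept in the comparison, and the gene lists below are also given without it. It was singled out after its values were seen. Leaving it out therefore raises the later differences of genes in which it was highest, and calls made without it are a description.

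Few single genes passed the test. Of 17929 genes tested, none was called higher at 1–3 h than at 0–1 h (0.0%) and 2 were called lower (0.0112%) by edgeR's quasi-likelihood test at an adjusted p of 0.05. At an unadjusted p under 0.05 there were 1044 higher genes (5.82%) and 1067 lower (5.95%). DESeq2 called 323 higher (1.8%) and 184 lower (1.03%), and limma-voom called 0 and 6. With the swine as a block, edgeR called 1 gene higher (0.00558%), UCK2, and 7 lower (0.039%). With the block on the 14 libraries alone, or on counts summed per swine, it called 0 genes in either direction (0.0%). Without 0–1 h replicate 4, it called 345 higher (1.93%) and 193 lower (1.08%), and without 1–3 h replicate 11 it called 0.752% of genes higher and 0.539% lower. It called 30 and 27 without 1–3 h replicate 2, and 23 and 18 without replicate 7. Without the fibrous libraries no gene was called, and with both kinds left out 200 were higher (1.11%) and 105 lower (0.584%). The median log2 fold change over all genes was 0.08, and 55.3% were positive. Counts of list members below are to be read beside these shares over all genes: 55.3% positive, 5.82% higher at an unadjusted p under 0.05, and 1.93% called higher without 0–1 h replicate 4.

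The plot of named genes by library orders its rows by the log2 fold change of 1–3 h against 0–1 h. That the upper rows are mostly red at 1–3 h follows from this order and is not a separate result. In these rows 4 of the 5 libraries of 0–1 h were pale or blue. Colours are relative to the mean of these 5 libraries. Where 1 of them is far above the rest, the rest fall below that mean by construction, so this is not a separate result either.

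**Figure D1:**
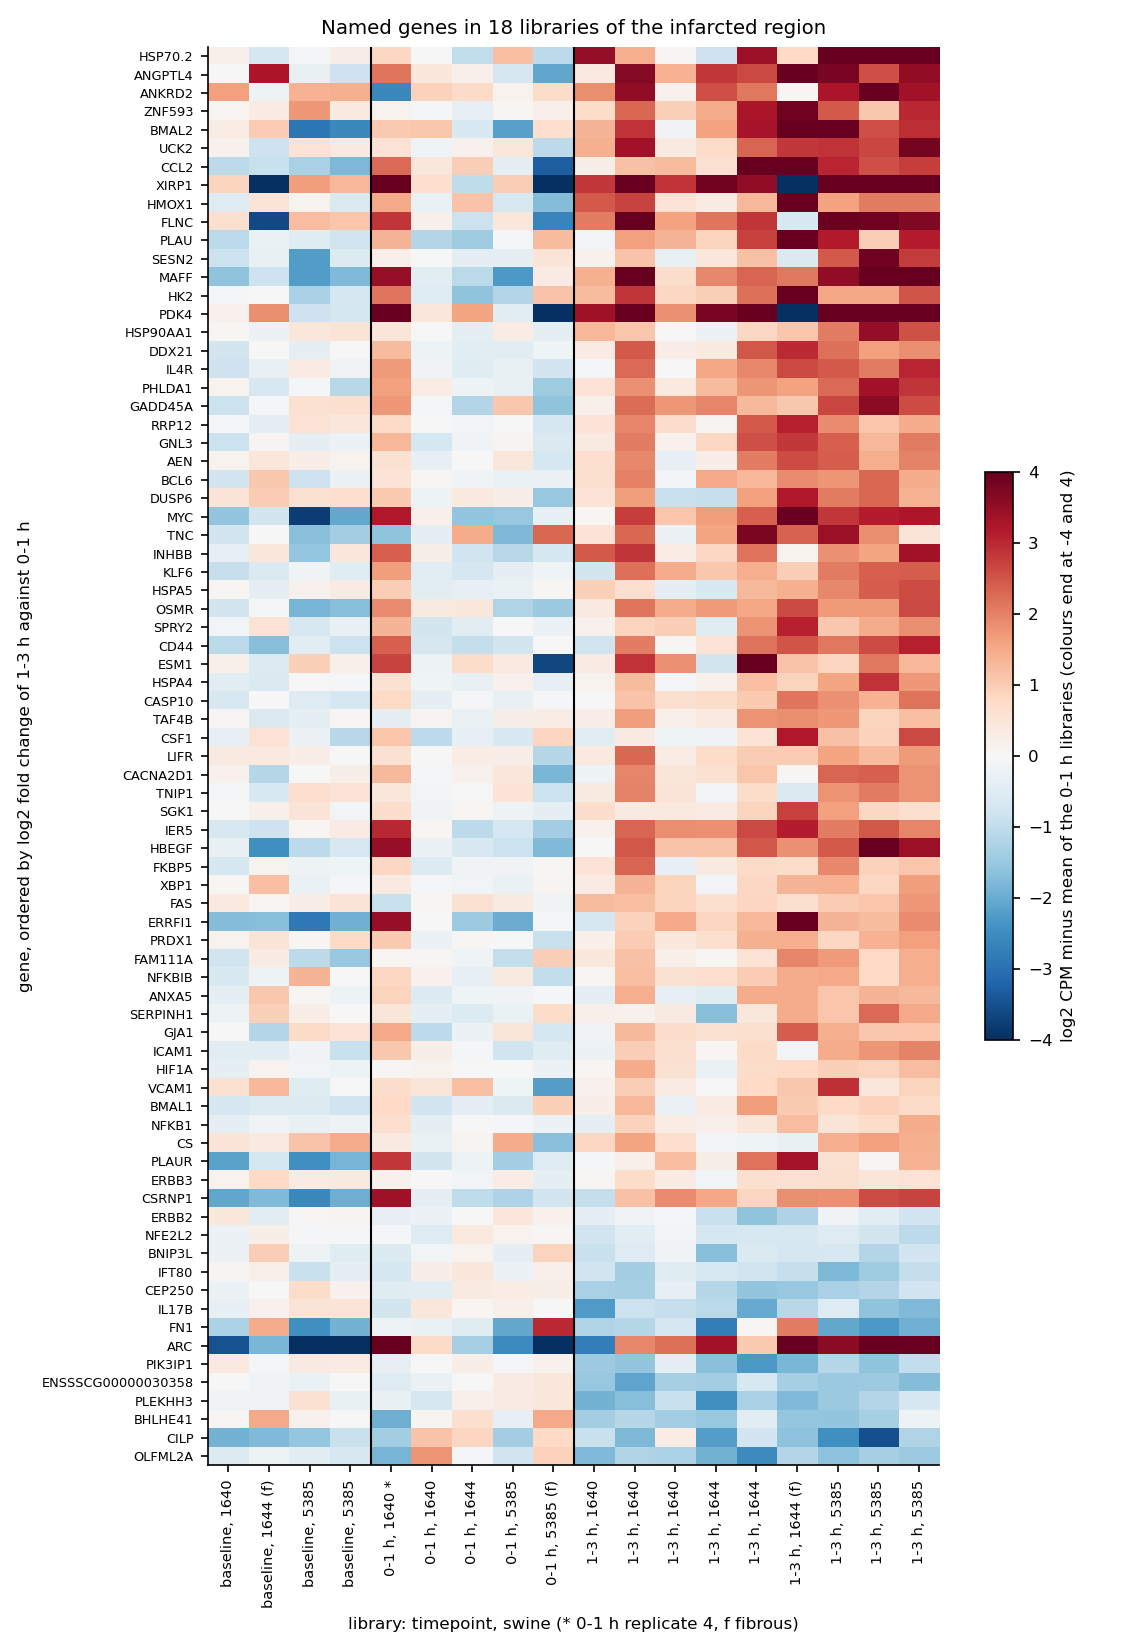
Each row is a gene and each column 1 of the 18 libraries of baseline, 0–1 h and 1–3 h, with the swine beside the time. Rows are ordered by the log2 fold change of 1–3 h against 0–1 h. Colour gives log2 CPM minus the gene's mean over the 5 libraries of 0–1 h. The column of 0–1 h replicate 4 (swine 1640, marked with an asterisk) is red in many rows where the other 4 libraries of 0–1 h are not, while PIK3IP1, ENSSSCG00000030358 and PLEKHH3 are blue in all 9 libraries of 1–3 h. A high value in replicate 4 raises the mean of the 5 libraries and so makes the other 4 paler or blue.

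Both called genes were lower at 1–3 h. PLEKHH3, which encodes a protein with pleckstrin homology domains, was at 32.3, 29.8, 34.5, 20.6 and 16.1 CPM in replicates 1 to 5 of 0–1 h. At 1–3 h it lay between 4.48 and 15.9 CPM with a median of 9.00, so that PLEKHH3 in all 9 libraries was below all 5 of the first hour. It fell by 1.47 ± 0.27 (SE) on the log2 scale, to 0.36 of the first-hour level, with an adjusted p of 0.0499. Its first-hour difference from baseline was 0.00 ± 0.33. The other called gene, ENSSSCG00000030358, has no symbol in the tables used. It was at 27.4, 21.7, 29.4, 14.9 and 17.8 CPM at 0–1 h and between 4.82 and 13.9 CPM (median 7.73) at 1–3 h, and fell by 1.46 ± 0.24 (adjusted p = 0.031). Both were lower in all 3 swine. Without the fibrous libraries, the adjusted p was 0.119 for ENSSSCG00000030358 and 0.135 for PLEKHH3. Groups without overlap were rare among all genes: 21 genes were lower in all 9 libraries of 1–3 h than in all 5 of 0–1 h (0.117%) and 8 were higher (0.0446%).

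The next genes by p did not pass the adjusted threshold. CEP250, a protein that links the centrioles of the centrosome, was at 149.3, 156.1, 143.8, 85.9 and 91.5 CPM at 0–1 h and between 40.9 and 96.7 CPM (median 49.1) at 1–3 h, with a log2 fold change of -1.16 ± 0.22 and an adjusted p of 0.0523. IL17B, a secreted cytokine, went from 46.9, 43.2, 40.3, 24.1 and 55.8 CPM to between 8.19 and 28.5 CPM (median 18.6), with -1.31 ± 0.25 (adjusted p = 0.0523). PIK3IP1, a membrane inhibitor of phosphoinositide 3-kinase, was at 33.01, 40.2, 38.7, 27.6 and 34.0 CPM and then between 6.87 and 26.0 CPM, with -1.38 ± 0.27 (adjusted p = 0.0523) and no overlap between the times. IFT80, a transport protein of the primary cilium, and OLFML2A, a matrix protein, had log2 fold changes of -1.03 ± 0.21 and -2.04 ± 0.42 (adjusted p = 0.071 for both). OLFML2A varied widely at 0–1 h (38.9, 65.5, 127.9, 18.5 and 231.5 CPM), with its highest values in replicate 5 and the fibrous replicate 3. At 1–3 h it lay between 11.3 and 30.1 CPM, and only 2 of 9 libraries were below all of the first hour. With the swine as a block, CEP250 and IL17B had an adjusted p of 0.0379 and IFT80 of 0.0358. All 5 genes were lower in each of the 3 swine. In the first hour, their differences from baseline lay between -0.26 and 0.97, with OLFML2A at the upper end.

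Among higher genes, UCK2 had the smallest p. It encodes uridine-cytidine kinase 2, which salvages pyrimidine nucleosides for RNA synthesis, and lies on chromosome 4 (84838793 to 84919231, Sscrofa11.1). It was at 54.2, 44.7, 18.8, 58.3 and 35.1 CPM at 0–1 h, close to the 21.8 to 58.5 CPM of baseline. At 1–3 h it lay between 50 and 557 CPM with a median of 249.6, and 8 of 9 libraries were above every library of the first hour. The log2 fold change was 2.54 ± 0.51, a 5.8-fold higher level (adjusted p = 0.0672, and 0.0358 with the swine as a block, a call that was not made with the block on the 14 libraries alone or on counts summed per swine). In UCK2, 0–1 h replicate 4 was close to replicate 1 and below 8 of the 9 libraries of 1–3 h.

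ZNF593, a zinc finger protein with a role in ribosome assembly, was between 1.23 and 1.86 CPM in the first hour and between 2.84 and 27.3 CPM (median 8.79) at 1–3 h, without overlap (log2 fold change 2.66 ± 0.56, adjusted p = 0.071). AEN, an exonuclease of the p53 response, had 1.67 ± 0.37 (adjusted p = 0.0837), and TAF4B, a subunit of the general transcription factor TFIID, had 1.24 ± 0.28 (adjusted p = 0.089). Of these genes, each was higher in all 3 swine, and their differences between 0–1 h and baseline lay between -0.83 and 0.22. The remaining 2 of the 6 genes of smallest p that were higher, RRP12 and DDX21, belong to ribosome biogenesis.

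Ribosome biogenesis genes shared 1 direction after the first hour. They encode the nucleolar proteins that transcribe, cut and modify ribosomal RNA and assemble it with ribosomal proteins. All 35 tested members (of 40 listed) had a positive log2 fold change between 0–1 h and 1–3 h, with a median of 1.22, against 55.3% positive and a median of 0.08 over all genes. An unadjusted p under 0.05 was reached by 33 of the 35 (94.3%), against 5.82% of all genes, and none passed the adjusted threshold. DESeq2 called 25 members higher, and edgeR called 20 without 0–1 h replicate 4 and 7 when the fibrous libraries were left out as well. The median was 1.31 without replicate 4 and 0.87 without the fibrous libraries, where no member was called. In the first hour the median difference from baseline was 0.03, with 20 of 35 positive, against 54.1% of all genes.

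RRP12, which exports precursors of both ribosomal subunits from the nucleus, was at 24.8, 22.7, 15.4, 41.4 and 24.1 CPM at 0–1 h. At 1–3 h it lay at 26.1 CPM or above with a median of 68.2 (1.71 ± 0.37, adjusted p = 0.0748), and 6 of 9 libraries were above all of the first hour. DDX21, an RNA helicase of the nucleolus, was at 27.7, 27.8, 33.2, 90.4 and 32.3 CPM and then between 45.6 and 297 CPM with a median of 135.9 (1.75 ± 0.40, adjusted p = 0.089). Here 0–1 h replicate 4 was the outlying value of the first hour, and without it the difference was 2.18 with an adjusted p of 0.00626. GNL3 (nucleostemin, a nucleolar GTPase) had 1.70 ± 0.41 (adjusted p = 0.0897). Members with smaller differences included NCL (nucleolin, 0.78) and BOP1 (0.57), which acts in the maturation of the large subunit.

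**Figure D2:**
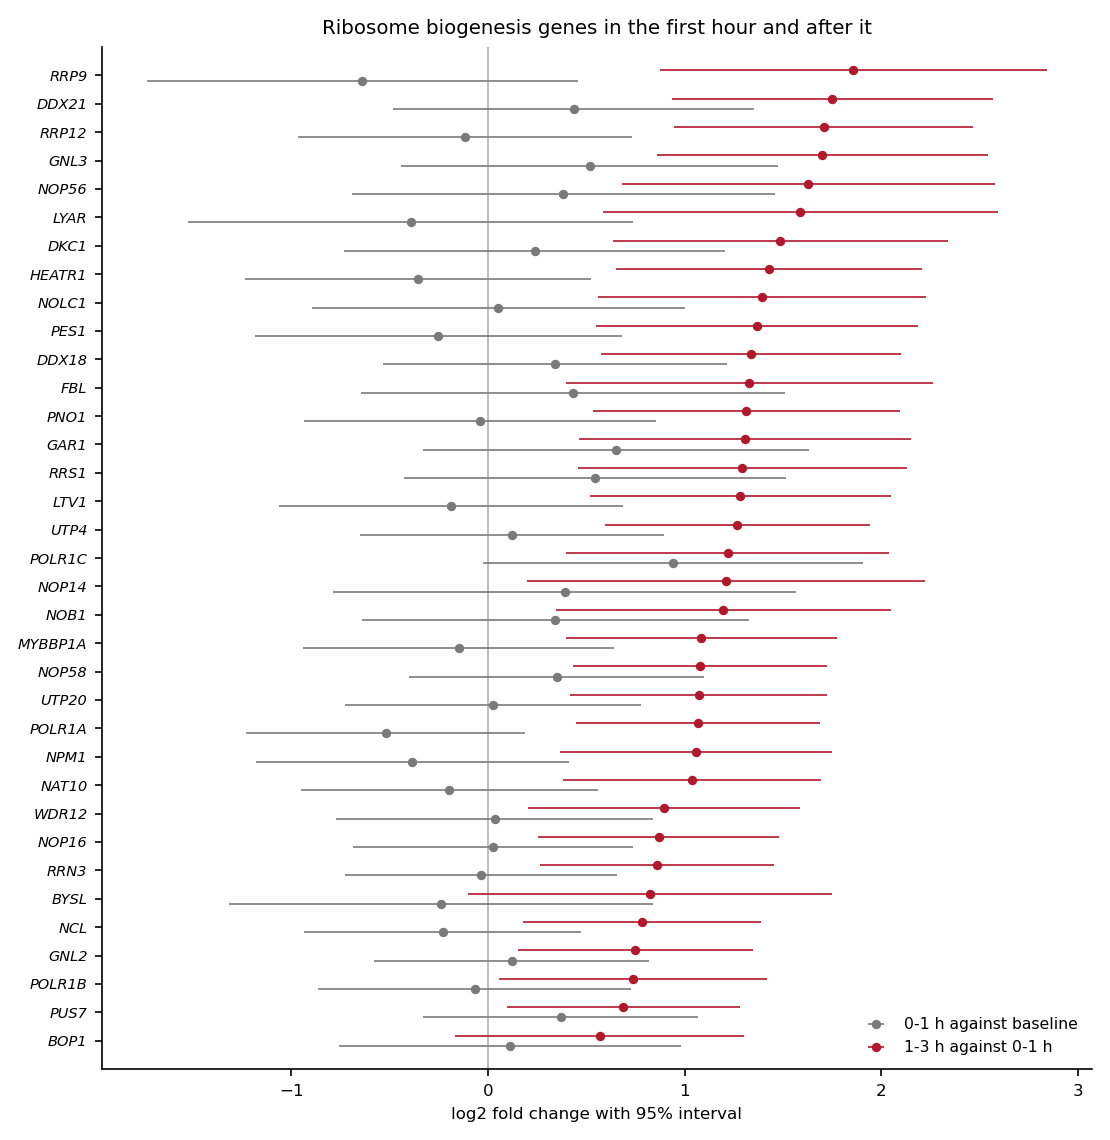
Log2 fold changes with 95% intervals of the 35 tested ribosome biogenesis genes, for 0–1 h against baseline (grey) and 1–3 h against 0–1 h (red). The grey intervals all include 0, while the red points all lie right of 0, from 0.57 for BOP1 to 1.86 for RRP9.

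The 9 libraries of 1–3 h did not share this level evenly. The mean log2 CPM of the 35 genes lay between 3.89 and 4.81 in the 5 libraries of 0–1 h and between 4.04 and 4.33 at baseline. At 1–3 h it was 4.17, 4.28 and 4.35 in replicates 2 (swine 1644), 11 and 7 (swine 1640), and between 5.10 and 6.69 in the other 6 libraries. So 3 biopsies of 1–3 h had a level within the range of the first hour, and the highest value was in the fibrous replicate 6. Replicates 2 and 7 also had the most genes with a CPM of at least 1 among the 14 libraries (20060 and 19682, against 13043 to 18490), and the part of this in the result was not tested. Within animals, the median difference over the 35 genes was 0.34 in swine 1640, 1.48 in swine 1644 and 1.37 in swine 5385, and 29 of 35 genes were higher in all 3 animals (82.9% against 13.5% of all genes).

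The promoter of RRP12 is shown because RRP12 is the ribosome biogenesis gene with the smallest p and holds an E-box, CACGTG, the DNA word that MYC and related factors bind. The window runs from 250 bases before to 50 bases from the start of the RefSeq gene on the minus strand, at chr14:108805464-108805763 of Sscrofa11.1, with the E-box in capitals.
RRP12: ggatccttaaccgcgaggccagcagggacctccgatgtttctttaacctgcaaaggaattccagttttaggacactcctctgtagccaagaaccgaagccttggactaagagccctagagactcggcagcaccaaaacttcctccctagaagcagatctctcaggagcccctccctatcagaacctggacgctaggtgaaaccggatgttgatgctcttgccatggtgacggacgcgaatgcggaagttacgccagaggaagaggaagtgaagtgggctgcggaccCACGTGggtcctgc
The E-box, which reads the same on both strands, was present in 5 of 35 promoters of the list (14.3%) and in 7.93% of all 19531 promoters of protein-coding RefSeq genes. The other 4 members with it were DDX18, RRP9, UTP20 and MYBBP1A. The share was also 22.7% among immediate early genes, so the word is not particular to the list, and a match is a description and not a bound site.

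Heat shock proteins and chaperones, which refold or hold damaged proteins, had positive differences after the first hour. This held for all 27 tested members (median 1.11), against 55.3% of all genes. An unadjusted p under 0.05 was reached by 17 of them (63.0%), against 5.82% of all genes, and none passed the adjusted threshold. DESeq2 called 12 members higher, and edgeR called 9 without 0–1 h replicate 4 (median 1.5) and 3 when the fibrous libraries were left out as well. In the first hour the median was -0.05, with 13 of 27 positive.

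HSP70.2, the stress-inducible HSP70 gene, was at 24.9, 5.24, 5.04, 19.1 and 10.8 CPM at 0–1 h and between 6.57 and 12.9 CPM at baseline. At 1–3 h it ranged from 5.91 to 2432 CPM, and 6 of 9 libraries were above all of 0–1 h. The log2 fold change was 5.03 ± 1.2 (32.6-fold, adjusted p = 0.089), and the within-animal difference was 1.25 in swine 1640, 2.13 in swine 1644 and 6.17 in swine 5385. HSP70.2 has near-identical copies, whose reads the counting may divide, so its level is uncertain.

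HSP90AA1, the inducible cytosolic HSP90, was at 511, 320, 322, 586 and 409 CPM in the first hour and between 355 and 4744 CPM (median 910) after it (1.78 ± 0.46, adjusted p = 0.119). HSPA4, an exchange factor of HSP70, had 1.33 ± 0.36 (adjusted p = 0.129). HSPH1, DNAJB1 and BAG3, further partners of HSP70, had 3.29, 2.87 and 2.27. The small heat shock protein genes of muscle HSPB7 and HSPB3 had 0.17 and 0.23. By swine, the median of the list was 0.40, 0.60 and 2.21 in swine 1640, 1644 and 5385, and all 3 libraries of 1–3 h of swine 5385, with mean log2 CPM of 6.75, 8.05 and 7.15, were above every other library of both times.

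A full heat shock element was searched as 3 alternating blocks, GAA, TTC and GAA, each pair 2 bases apart, or TTC, GAA and TTC on the other strand. It was found in 5 of 26 promoters of the list (19.2%), in HSPA8, HSPD1, HSP90AB1, DNAJA1 and CHORDC1, and in 0.379% of all promoters. The promoter of HSP90AB1, the constitutive HSP90, is shown as the one of these genes with the smallest p (1.11 ± 0.32, adjusted p = 0.129). It lies on the plus strand at chr7:39237049-39237348, with the element in capitals.
HSP90AB1: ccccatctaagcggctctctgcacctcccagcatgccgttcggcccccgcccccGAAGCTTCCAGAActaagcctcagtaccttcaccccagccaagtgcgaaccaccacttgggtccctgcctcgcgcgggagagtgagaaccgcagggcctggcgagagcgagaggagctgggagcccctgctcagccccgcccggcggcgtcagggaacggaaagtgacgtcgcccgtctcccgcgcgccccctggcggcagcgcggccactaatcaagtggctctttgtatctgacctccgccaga

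Genes of the integrated stress and unfolded protein response, which restore amino acid supply and folding capacity, also had mostly positive differences after the first hour. Of 26 tested members, 25 had a positive log2 fold change (median 0.86, first hour -0.10), and the exception, ASNS (asparagine synthetase), was at -0.66. Of the 25, 11 had an unadjusted p under 0.05 (42.3% of the list, against 5.82% of all genes). XBP1, the transcription factor of the endoplasmic reticulum response, was at 33.2, 37.0, 42.7, 50.7 and 37.7 CPM at 0–1 h and between 37.1 and 126.6 CPM (median 73.4) at 1–3 h. Its log2 fold change was 1.03 ± 0.28 (adjusted p = 0.129), with 7 of 9 libraries above all of the first hour, although 1 baseline library reached 92.7 CPM. HSPA5, the chaperone BiP, had 1.39 ± 0.41 and SESN2, a leucine sensor that restrains growth signalling, 2.00 ± 0.61 (adjusted p = 0.139 and 0.157). None of the 26 passed. With 0–1 h replicate 4 left out edgeR called 5 higher (median 0.77), and 4 when the fibrous libraries were left out as well, and DESeq2 called 4.

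The element bound by ATF6 and XBP1, CCAAT and CCACG with 9 bases of any kind between them, searched on both strands, was found in 5 of 25 promoters of this list (20%), those of XBP1, HSPA5, HSP90B1, PDIA6 and CALR, and in 0.0819% of all promoters. The differences of these 5 genes lay between 0.48 and 1.39. The XBP1 promoter is shown as the one of smallest p, at chr14:46016477-46016776 on the minus strand, with the element in capitals.
XBP1: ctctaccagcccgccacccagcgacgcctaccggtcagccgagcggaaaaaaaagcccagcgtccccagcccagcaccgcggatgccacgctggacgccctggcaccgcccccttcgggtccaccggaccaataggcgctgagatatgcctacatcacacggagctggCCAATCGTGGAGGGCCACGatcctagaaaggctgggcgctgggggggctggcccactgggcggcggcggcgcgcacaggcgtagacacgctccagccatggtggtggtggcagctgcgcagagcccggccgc

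Immediate early genes had positive differences in the first hour, and their size depended on 1 library. Against baseline, all 23 tested members had a positive difference in the first hour (median 2.56), and 14 had an unadjusted p under 0.05 (60.9%) against 1.87% of all genes. Between 0–1 h and 1–3 h the median was 0.45, with 18 of 23 positive and 1, KLF6, at an unadjusted p under 0.05. By swine, this later median was -0.388 in swine 1640, which gave 0–1 h replicate 4, 2.02 in swine 1644 and 2.589 in swine 5385. Without 0–1 h replicate 4 the balance moved. In the first hour 20 of 23 were positive, with a median of 0.96 and 1 at an unadjusted p under 0.05. The later median was 2.11, and 7 members were called higher after the first hour. Replicate 4 was singled out by its level of these same genes, so these calls describe the setting and are not separate support. The mean log2 CPM of the 23 genes was 4.13, 3.59, 3.76, 7.53 and 4.56 in replicates 1 to 5 of 0–1 h, between 3.02 and 3.30 at baseline and between 4.23 and 6.87 at 1–3 h. Replicate 4 was thus above all 9 libraries of 1–3 h, and the other 4 libraries of the first hour were all above baseline.

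**Figure D3:**
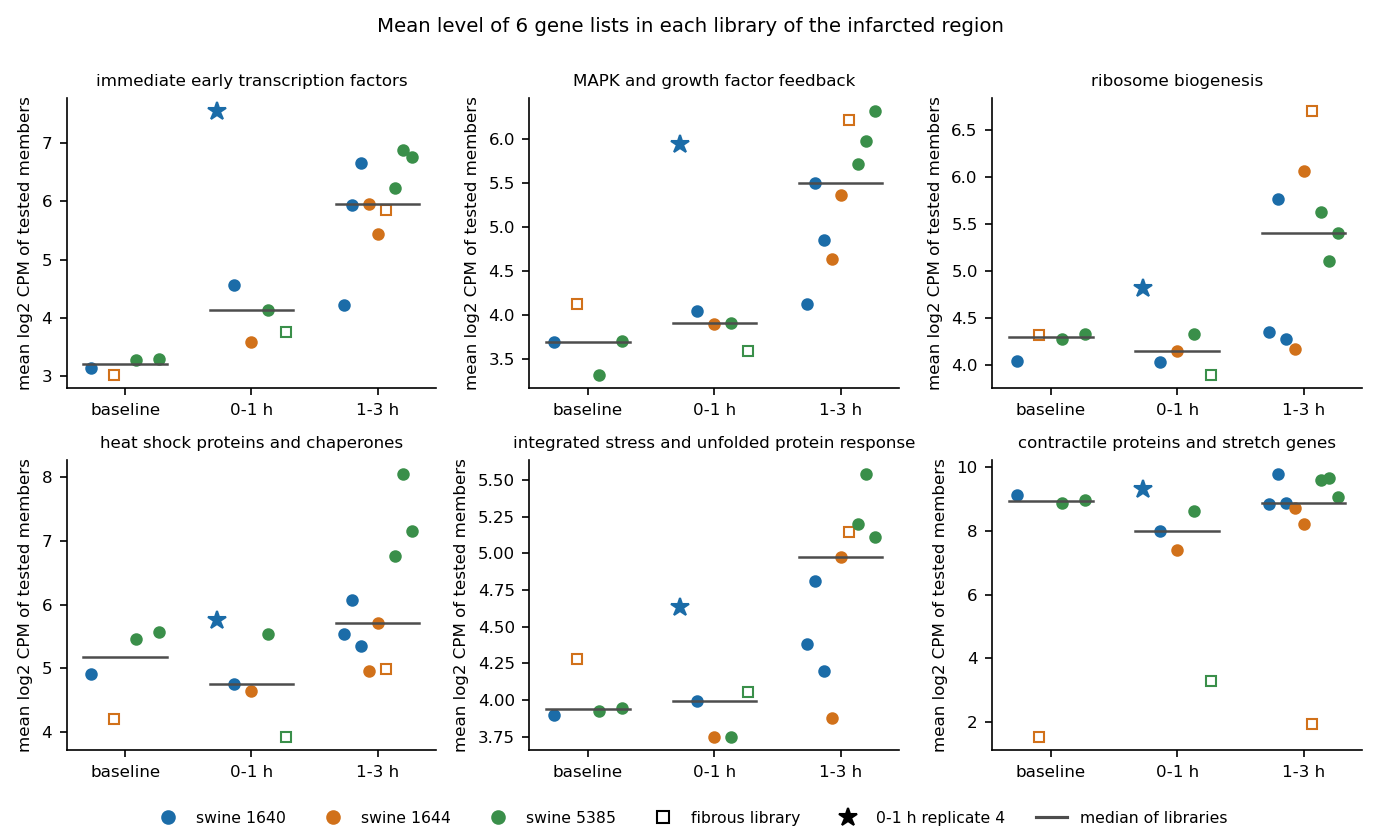
Each point is 1 library and gives the mean log2 CPM of the tested members of a list at baseline, 0–1 h and 1–3 h; colours mark swine, open squares fibrous libraries, the star 0–1 h replicate 4 and lines the medians of libraries. For ribosome biogenesis, baseline and 0–1 h are at one level and 6 of 9 libraries of 1–3 h lie above it, while for immediate early genes 0–1 h already lies above baseline.

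KLF6, a zinc finger factor, was at 47.4, 39.5, 54.9, 198 and 46.9 CPM at 0–1 h and between 37.8 and 333 CPM (median 176.7) at 1–3 h, with a log2 fold change of 1.42 ± 0.44 (adjusted p = 0.158). MYC was at 8.10, 7.87, 18.8, 220.2 and 27.7 CPM and then between 25.2 and 372 CPM, with 1.48 ± 0.80 (adjusted p = 0.494) and, without replicate 4, 3.25 (adjusted p = 0.0272). ARC, an activity-induced gene best known from neurons, was at 0.605, 1.70, 0, 858 and 8.10 CPM and then between 0.474 and 200.7 CPM. Its direction depended on replicate 4, with -1.38 ± 1.17 with that library and 4.49 without it. CSRNP1, a nuclear protein induced by growth signals, went from 0.43 ± 0.70 to 2.58 in the same way. For these 4 genes the first hour in the other 4 libraries reached at most 54.9 CPM.

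The group of MAPK and growth factor feedback genes, phosphatases and adaptors that damp the kinase cascade that induces immediate early genes, also depended on that library. Of 20 members, 19 were positive after the first hour (median 1.14) and 13 in it (median 0.53), with 9 and 7 at an unadjusted p under 0.05. Without 0–1 h replicate 4 the first-hour median was 0.07 with none at an unadjusted p under 0.05, and the later median was 1.80 with 7 called higher. Without the fibrous libraries, the later median was 0.65. By swine, it was -0.119, 1.663 and 1.751 in swine 1640, 1644 and 5385, and replicate 4 came from swine 1640. PHLDA1, SPRY2 and DUSP6, inhibitors of growth factor signalling, had 1.72 ± 0.49, 1.35 ± 0.42 and 1.52 ± 0.52 (adjusted p = 0.129, 0.164 and 0.202) and first-hour differences of 0.71, 0.25 and -0.49. DUSP5, a phosphatase of ERK, had 4.58 in the first hour and 1.61 after it, and ERRFI1, an inhibitor of the EGF receptor, had 3.47 and 1.00. Without replicate 4, DUSP5 had 1.5 in the first hour and 4.66 after it (adjusted p = 0.0148), and ERRFI1 had 1.40 and 2.96. The later value of ERRFI1 was -0.47 without the fibrous libraries. The EGF family itself (11 tested genes) had a median of 0.32, and of -0.18 with 5 of 11 positive with the swine as a block, with HBEGF at 1.11 ± 0.71 and ERBB2 at -0.57 ± 0.27. HBEGF, a ligand of the EGF receptor, had 2.40 in the first hour, and without replicate 4 it had 0.18 in the first hour and 3.29 after it (adjusted p = 0.0109), with a list median of 0.48.

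The list of interleukin-6 family receptors and JAK-STAT3 signalling also holds genes outside that family, such as IL4R and BCL6. After the first hour 20 of 24 tested members were positive (median 0.60), and within it 15 of 24 (median 0.27). An unadjusted p under 0.05 was reached by 9 after the first hour (37.5%, against 5.82% of all genes), and none passed after adjustment. The later median was 0.99 without 0–1 h replicate 4, with 8 members called higher, and in the first hour 12 of 24 were positive (median 0.001). LIFR, the receptor of leukemia inhibitory factor, was at 201.1, 205.7, 76.9, 256 and 167.3 CPM at 0–1 h and between 209.5 and 833 CPM (median 344) at 1–3 h (1.17 ± 0.30, adjusted p = 0.113). BCL6, a transcriptional repressor, had 1.54 ± 0.40 with 8 of 9 libraries above the first hour, and IL4R 1.75 ± 0.53 (adjusted p = 0.119 and 0.152). OSMR, the oncostatin M receptor, had 1.42 in the first hour and 1.39 ± 0.54 after it, and 0.72 and 2.09 (adjusted p = 0.0314) without replicate 4.

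Cytokine and chemokine genes were mixed, with 11 of 20 positive (55.0%, median 0.41), near the 55.3% of all genes. CCL2, which attracts monocytes, was at 11.5, 30.2, 1.33, 73.1 and 20.9 CPM and then between 17.7 and 522 CPM (median 92.4; 2.43 ± 0.80, adjusted p = 0.184). Its highest values were in the libraries of 1–3 h, 5 of which were above all of the first hour. The NF-kB list had 17 of 19 positive (median 0.52), with the inhibitors TNIP1 at 1.15 ± 0.38 and NFKBIB at 0.93 (adjusted p = 0.188 and 0.2). Leukocyte adhesion genes (18 tested, median 0.47) had no member at an unadjusted p under 0.05. In swine 1640, which gave 0–1 h replicate 4, the medians of the cytokine, NF-kB and leukocyte adhesion lists were -0.225, -0.24 and -0.233. They were 0.82, 0.645 and -0.241 in swine 1644, and 0.908, 1.193 and 1.703 in swine 5385. The medians of the cytokine, NF-kB and leukocyte adhesion lists were 0.63, 0.78 and 0.65 without 0–1 h replicate 4. In that setting 2, 2 and 0 members were called higher (of 20, 19 and 18), against 1.93% of all genes. Summed markers of neutrophils had a median of 22.4 CPM at 0–1 h (3.52 to 119.1) and 32.1 CPM at 1–3 h (3.59 to 119.7), and those of macrophages and monocytes 142.8 and 129.6, with overlapping ranges; their part in the cytokine values was not tested. Among the macrophage markers, LYZ was at 0 in every library of baseline, 0–1 h and 1–3 h. The same held for OGN of the fibroblast markers and EGFL7 of the endothelial markers, so the 0 of LYZ is not read as a cell level.

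Of the coagulation and fibrinolysis genes, 15 of 21 were positive (median 0.45, and 0.02 with the swine as a block). By swine, the median was -0.305, 1.024 and 1.238 in swine 1640, 1644 and 5385. Without 0–1 h replicate 4 the median was 1.11 with 4 called higher, and with the fibrous libraries left out as well it was 1.17, with 19 of 21 positive and 6 called. PLAU, the urokinase that activates plasminogen, had 2.09 ± 0.60 and ANXA5, an annexin that binds exposed phosphatidylserine, 0.90 ± 0.35 (adjusted p = 0.137 and 0.273).

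Targets of hypoxia-inducible factor did not move as one group, although the samples of the first hour were taken during ischemia. In the first hour 12 of 27 were positive (median -0.03), and after it 21 of 27 (median 0.53), with 7 higher and 2 lower at an unadjusted p under 0.05. The later median was 0.79 without 0–1 h replicate 4, with 6 called higher and 1 lower. ANGPTL4, a secreted inhibitor of lipoprotein lipase, was at 7.5, 13.7, 2.65, 53.7 and 16.0 CPM and then between 15.8 and 395 CPM (median 86.6; 2.76 ± 0.76, adjusted p = 0.129), while a fibrous baseline library was at 117.8 CPM. HIF1A itself was at 65.1, 65.5, 54.4, 66.8 and 71.8 CPM and then between 53.0 and 180.1 CPM (median 111.7), with 0.80 ± 0.22 and 7 of 9 libraries above the first hour. ADM (adrenomedullin, a vasodilator) and HK2 (hexokinase) had 2.53 and 1.88, and LDHA -0.01. BNIP3L, a mitophagy receptor, was lower in all 3 swine (-0.83 ± 0.27, adjusted p = 0.173).

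**Figure D4:**
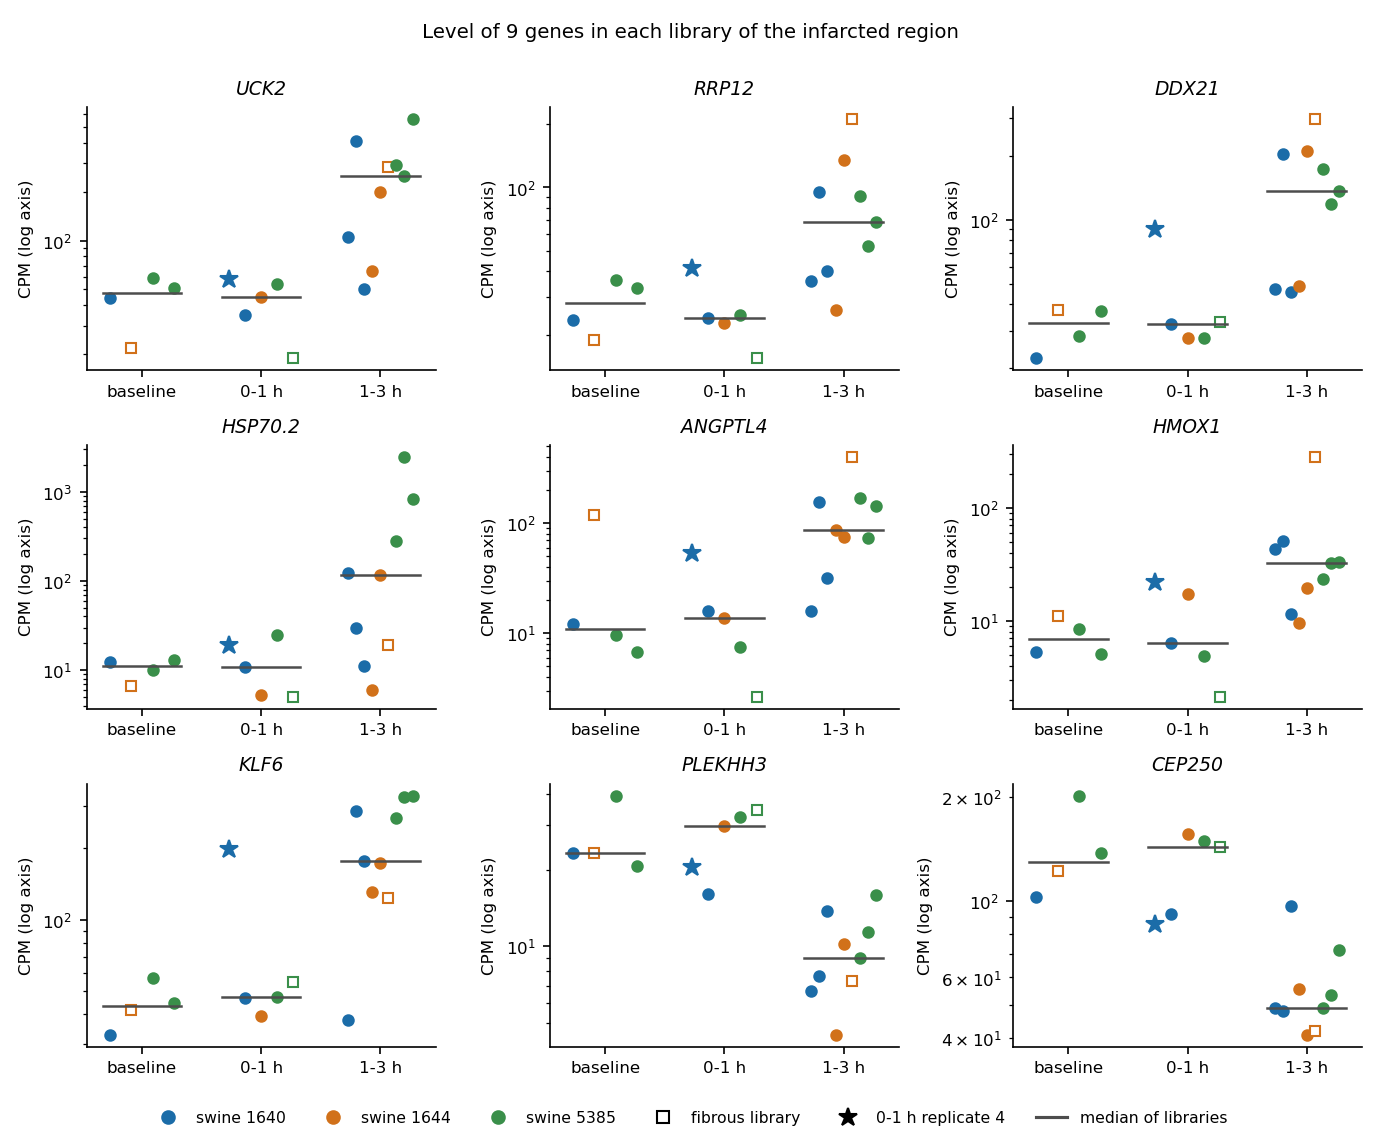
Each point is the CPM of a gene in 1 library at baseline, 0–1 h and 1–3 h on a log axis, with colours for swine, open squares for fibrous libraries, a star for 0–1 h replicate 4 and lines for medians. UCK2, RRP12 and HSP70.2 have baseline and 0–1 h at one level, KLF6 has 0–1 h replicate 4 at 198 CPM among the 1–3 h values, and PLEKHH3 has all 9 libraries of 1–3 h below all 5 of 0–1 h.

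Among oxidative stress genes (19 of 23 positive, median 0.57, first hour -0.27), HMOX1, which degrades heme, was at 4.84, 17.1, 2.12, 22.3 and 6.37 CPM and then between 9.63 and 281 CPM (median 32.8; 2.41 ± 0.66, adjusted p = 0.129). Its highest value was in the fibrous 1–3 h replicate 6, and without the fibrous libraries the difference was 1.19. NFE2L2, the transcription factor NRF2 that activates HMOX1, was lower (-0.64 ± 0.18, adjusted p = 0.129) in all 3 swine, with 7 of 9 libraries below the first hour. PRDX1, a peroxide scavenger, had 0.94 ± 0.27. Of the cell death list 17 of 25 were positive (median 0.47). FAS, a death receptor, was at 9.43, 11.3, 6.63, 3.89 and 7.75 CPM in the first hour and between 11.6 and 25.2 CPM after it, without overlap, with 1.02 ± 0.36 (adjusted p = 0.221). CASP10 and GADD45A had 1.32 ± 0.34 and 1.71 ± 0.53. The oxidative stress list had a median of 0.56 without 0–1 h replicate 4, with 4 called higher and 1 lower, and the cell death list 0.42 with 3 called higher.

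Contractile proteins and genes of the stretched sarcomere had 3 of 22 positive in the first hour (median -0.62) and 19 of 22 after it (median 0.70), with 2 members, ANKRD2 and FLNC, at an unadjusted p under 0.05. When 0–1 h replicate 4 was left out the later median was 0.93 with 1 called higher, and 3 were called when the fibrous libraries were left out as well. The same turn was seen in the 9 cardiomyocyte markers, at -0.70 and 0.76, none of them with an unadjusted p under 0.05. The first-hour fall depended on the measure. By mean log2 CPM at baseline, 0–1 h and 1–3 h, the contractile list was at 7.135, 7.33 and 8.31, and these markers at 8.84, 9.02 and 9.80. Each of these times holds a fibrous library, with baseline replicate 1 (swine 1644) at 1.87 for these markers. The summed level of 10 such markers ranged from 336 to 29710 CPM at 0–1 h and from 61.5 to 25450 CPM at 1–3 h. The share of cardiomyocytes in a biopsy and the RNA per cell cannot be told apart here. By swine, the median of the contractile list was 0.92, -2.04 and 3.52 in swine 1640, 1644 and 5385; swine 1644 has its fibrous library at 1–3 h and swine 5385 at 0–1 h. FLNC, an actin crosslinker of the Z-disc, was at 887, 360.4, 105, 4705 and 750.4 CPM and then between 431 and 12150 CPM (median 4745), with 2.11 ± 0.83, and XIRP1 had 2.42 ± 1.25 (adjusted p = 0.28 and 0.461). Without the fibrous libraries and 0–1 h replicate 4, FLNC had 3.28 (adjusted p = 0.00493) and XIRP1 had 4.36 (adjusted p = 0.00476). The troponin and myosin genes TNNT2, MYL2 and MYBPC3 had 0.63, 0.93 and 0.04.

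Genes of fatty acid and glucose oxidation had a median of -0.55 in the first hour and 0.41 after it (26 of 36 positive). By swine, the later median was 0.853, -0.643 and 1.279 in swine 1640, 1644 and 5385, with 4 of 36 genes higher in swine 1644. The mean log2 CPM of this list was lowest in the fibrous library at both times (3.591 at 0–1 h and 4.313 at 1–3 h). The part of tissue composition in these values was not tested. PDK4, which shuts off pyruvate oxidation, was between 0.265 and 991 CPM at 0–1 h and then between 2.17 and 2615 CPM (median 806; 1.84 ± 1.13, adjusted p = 0.568), with the lowest value of either time in a fibrous library. PDK4 had 4.09 without 0–1 h replicate 4 (adjusted p = 0.0827), and 3.85 (adjusted p = 0.0172) when the fibrous libraries were left out as well. Ion channel genes had a median of 0.12 (by swine 0.436, -1.333 and 1.167 in swine 1640, 1644 and 5385), with CACNA2D1, a calcium channel subunit, at 1.15. This list too was lowest in the fibrous library at both times. Of the circadian list (17 tested, median 0.18), BMAL2 had 2.60 ± 0.73 and BHLHE41, a repressor of the clock, -1.55 ± 0.46. Glucocorticoid-induced genes were positive in 17 of 21 (median 0.36), with FKBP5 at 1.06 ± 0.34 and SGK1 at 1.14 ± 0.38 (adjusted p = 0.17 and 0.189). With replicate 4 of 0–1 h left out, the medians of the oxidation, ion channel, circadian and glucocorticoid lists were 0.49, 0.22, 0.30 and 0.5, with 1, 0, 3 and 2 called higher and 1 circadian gene called lower. The circadian median was -0.06 without the fibrous libraries.

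Matrix genes had a direction that depended on the setting (17 of 29 positive, median 0.05, after 0.56 in the first hour). The positive share of 58.6% was near the 55.3% of all genes. With the swine as a block 8 of 29 were positive (median -0.52), and without 0–1 h replicate 4 the median was 0.02, and without the fibrous libraries as well 23 of 29 were positive (median 0.45). CILP, a cartilage matrix protein made by cardiac fibroblasts, was at 12.9, 63.1, 60.5, 13.0 and 76.0 CPM at 0–1 h and between 2.84 and 42.6 CPM (median 10.9) at 1–3 h, near the 9.22 to 18.4 CPM of baseline (-1.60 ± 0.61, adjusted p = 0.257). FN1 (fibronectin) had -1.32 ± 0.82 and TNC (tenascin C) 1.48 ± 0.80 (adjusted p = 0.574 and 0.494). TNC and FAM111A, at 0.94 ± 0.41, were higher in all 3 swine. The sum of 10 fibroblast markers ranged from 3419 to 38690 CPM at 0–1 h and from 1376 to 84760 CPM at 1–3 h, and in both times the mean log2 level of these markers was highest in the fibrous library (9.76 and 10.5); its part in the matrix values was not tested.

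**Figure D5:**
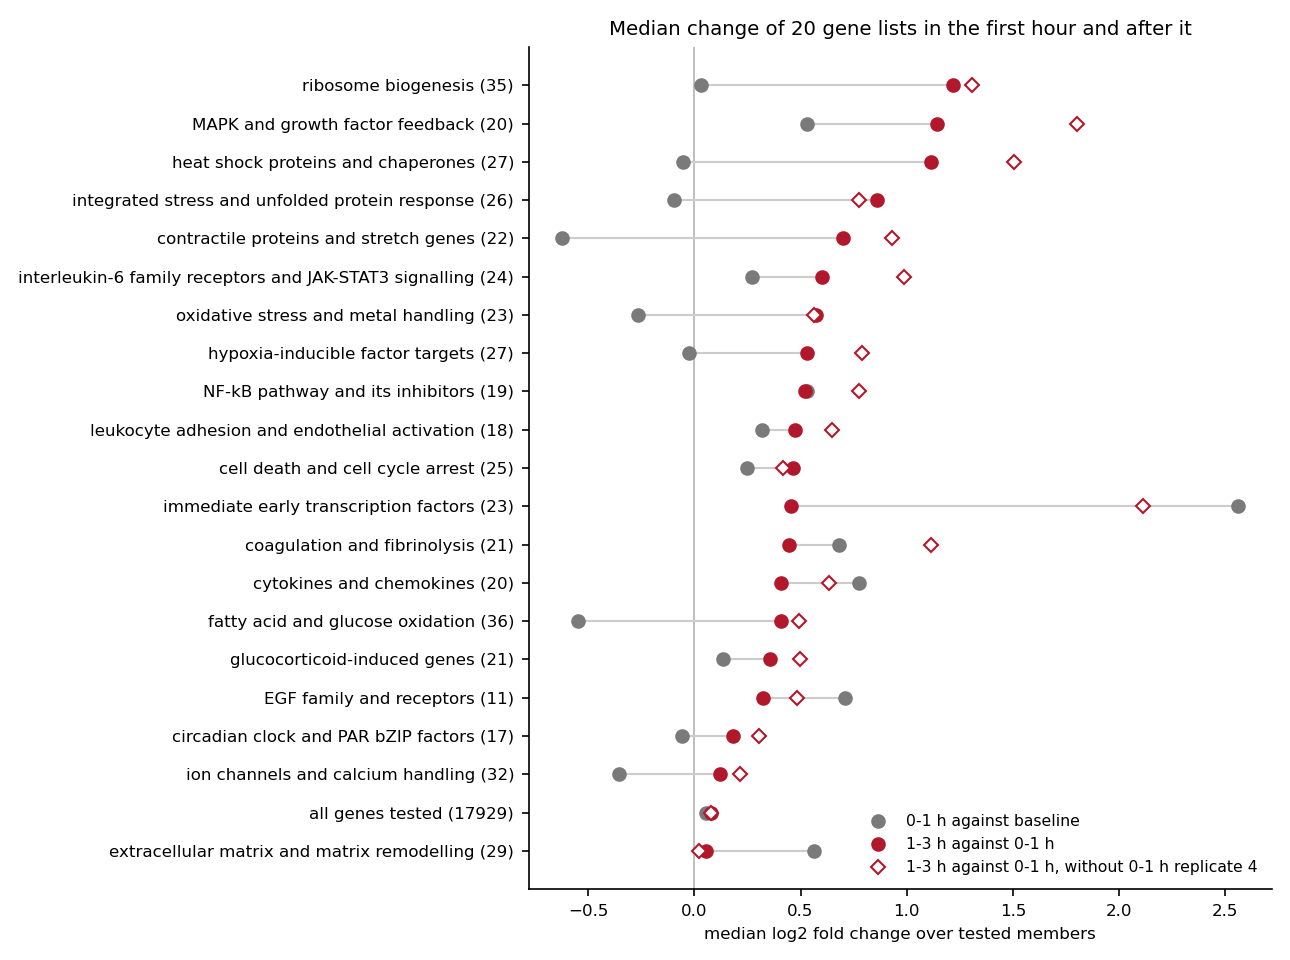
Median log2 fold change over the tested members of 20 gene lists and of all genes (number of members in brackets) for 0–1 h against baseline (grey), 1–3 h against 0–1 h (red) and the latter without 0–1 h replicate 4 (open diamonds). Ribosome biogenesis and heat shock genes are near 0 in the first hour and at 1.22 and 1.11 after it, while immediate early genes are at 2.56 and 0.45, with the open diamond at 2.11.

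Values of the first hour and of the later step share the 0–1 h libraries, so a high 0–1 h level raises one and lowers the other, and they are given side by side without a test of their relation. No gene was called between 0–1 h and baseline by edgeR (0.0% in both directions; 335 higher, 1.87%, and 261 lower, 1.46%, at an unadjusted p under 0.05), where DESeq2 called 2 and limma-voom 0. Against baseline, 0.842% of genes were called higher at 1–3 h and 0.781% lower, among them 10 of 35 ribosome biogenesis genes, 6 of 23 immediate early genes and 4 of 27 heat shock genes, all higher. Median differences from baseline at 1–3 h were 1.19, 2.97 and 1.08 for these lists, against 0.12 for all genes.

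In the non-infarcted region, with 3 libraries at each time, no gene was called between 0–1 h and 1–3 h by edgeR (0.606% higher and 0.0703% lower at an unadjusted p under 0.05). Ribosome biogenesis genes had a median of 0.84 there (35 of 35 positive), heat shock genes of 0.18 (18 of 27) and integrated stress genes of 0.63 (22 of 26). Over all genes, the median there was 0.04, with 9497 of 17791 positive. A test of the difference between regions called no gene (0.876% of genes at an unadjusted p under 0.05 by edgeR, 0.232% in the positive and 0.643% in the negative direction, 1.38% by DESeq2 and 0.735% by limma-voom, and none after adjustment by any of them). HSP70.2 had the difference of 5.04 log2 units between regions at an unadjusted p of 0.0185, and RRP12 of 0.87 at 0.266. The kept lateral libraries of 0–1 h came from all 3 swine. At 1–3 h, lateral replicates 4 and 5 came from swine 1644 and replicate 6 from swine 5385, with none from swine 1640. The study reports that some lateral samples of a single animal clustered with later infarcted samples, most likely through inaccurate sampling. Whether such samples are among the lateral libraries used here was not tested. With 3 lateral libraries per time, 1 of them fibrous, no change after the first hour was shown to be particular to the infarcted region.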

How the data were processed

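Micro-biopsy RNA had been made into libraries with a total-RNA kit for very small inputs. The authors aligned reads with STAR to Sscrofa11.1 and deposited raw counts per gene from featureCounts (31907 gene IDs, 15029 with a symbol), counted without strand, so antisense and overlapping genes cannot be told apart. No normalisation had been applied to the deposited counts. The filter on low values asked for a CPM of 1 or more in 20% of libraries or more. edgeR 4.0.16 (TMM, quasi-likelihood test, Benjamini-Hochberg adjustment) was fitted to 29 libraries of the infarcted region at all timepoints and 17929 genes, and to 20 libraries and 18496 genes for the region-by-time interaction. The common biological coefficient of variation was 0.664. DESeq2 1.42.0 and limma 3.58.1 were alternatives, in R 4.3.3. CPM values are TMM-scaled, and log2 CPM carries a prior count of 2. Libraries of the same swine deviated together (mean correlation 0.11 in 110 pairs, against -0.05 in 217 pairs of different swine), so fits with the swine as a block are given. The scripts were tested on simulated data.

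Named genes were those of smallest p in each direction (6), up to 3 of smallest p in each list and 12 genes the study follows over time; some of these are not reported here, and other genes named were chosen after their values were seen. The members and gene lists were chosen with earlier results of these data known. Promoters were read from the Sscrofa11.1 genome with RefSeq gene starts.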

Additional observations from a re-analysis of the deposited data

Results flagged for a closer look

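Among the 79 named genes, each checked within 0–1 h and within 1–3 h, 15 single libraries lay far from the rest of their group, where chance gives about 1 in 20. All values are log2 CPM, with the nearest other library second. Replicate 4 of 0–1 h was the highest library of its group for DDX21 (6.50 against 5.06), KLF6 (7.63 against 5.79), IL4R (7.36 against 5.53), CD44 (8.06 against 5.65), CSRNP1 (8.40 against 4.62) and PLAUR (6.54 against 3.5), and the lowest for ANKRD2 (-2.07 against 0.65). At 1–3 h, replicate 7 of swine 1640 was the lowest for KLF6 (5.25 against 6.96), IER5 (4.79 against 6.46) and CSRNP1 (4.07 against 5.87). The fibrous replicate 6 was the highest for HMOX1 (8.13 against 5.68) and ERRFI1 (10.51 against 7.43), and the lowest for PDK4 (1.27 against 7.10) and XIRP1 (1.81 against 10.39). Replicate 4 of swine 5385 was the highest for VCAM1 (7.29 against 5.44). The 15 flags share libraries and are not independent.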

How the results depend on the processing

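The counts of called genes between 1–3 h and 0–1 h depended on the setting. By edgeR with DESeq2's size factors, and likewise with the swine as a replicate block, 1 gene was higher and 7 were lower. DESeq2 called 323 and 184, or 880 and 495 with 0–1 h replicate 4 left out, and limma-voom called 6 lower. Another filter, a count of at least 10 in at least 5 libraries, gave 5 lower genes, as did leaving out mitochondrial and ribosomal protein genes. None was called in either direction with only the 14 libraries, with or without the block, with counts summed per swine, with every labelled library, or without the fibrous libraries. Leaving out each library in turn gave 0 to 345 higher and 0 to 193 lower genes. With 0–1 h replicate 4 and the fibrous libraries left out together, 200 were higher and 105 lower. Between 0–1 h and baseline, DESeq2 called 2. The cause was not tested. Settings that leave out replicate 4 together with the fibrous libraries, or in DESeq2, were added after seeing the data.

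ARC turned positive by limma-voom (2.48), in the 14 libraries with the block (0.89), without 0–1 h replicate 4 (4.49), without it and the fibrous libraries (3.78) and by DESeq2 without it (4.53). ERRFI1 turned negative by DESeq2 (-0.37), without the fibrous libraries (-0.47) and without 1–3 h replicate 6 (-0.26), and PLAUR without the fibrous libraries (-0.21) and without that replicate (-0.005). FN1 was at 0.23 without 0–1 h replicate 3. With single libraries left out, these 4 genes ranged from -1.77 to 4.49 (ARC), -0.26 to 2.96 (ERRFI1), -0.005 to 2.09 (PLAUR) and -2.27 to 0.23 (FN1). Of the other values of single genes and lists, 2476 kept their direction and side of the threshold, 260 newly passed it, 18 no longer passed it and 7 moved beyond their spread.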

Other observations

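Smooth muscle genes varied widely between biopsies. MYH11, the myosin of smooth muscle, was at 76.7, 345, 20.4, 8.37 and 2649 CPM in replicates 1 to 5 of 0–1 h and between 4.81 and 140.3 CPM (median 27.6) at 1–3 h, with a log2 fold change of -3.98 ± 0.96 (adjusted p = 0.0897 by edgeR). ACTA2, smooth muscle actin, was at between 10.6 and 740.3 CPM and then between 1.55 and 53.7 CPM (-2.74 ± 0.72). In both genes the highest library was 0–1 h replicate 5 of swine 1640. Of the 8 smooth muscle and pericyte markers, 4 had a positive difference (median -0.49) and 3 were lower at an unadjusted p under 0.05, of which edgeR called 2 without 0–1 h replicate 4. All 6 adipocyte markers had a positive difference (median 1.14), after a first-hour median of -2.77, and their summed level ranged from 16.9 to 347 CPM at 0–1 h and from 68.5 to 1045 CPM at 1–3 h. The mean log2 CPM of these markers was 8.27, -0.27 and 6.73 in the fibrous libraries of baseline, 0–1 h and 1–3 h, and between 1.84 and 2.37, between 1.66 and 2.67 and between 1.48 and 3.23 in the others. Without the fibrous libraries 5 of 6 had a positive difference (median 0.56).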
